A study of Mus musculus with 18 samples.

Results

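The genes described here are the matrix proteases and their inhibitors in mouse quadriceps muscle, taken as the matrix metalloproteinases (MMPs), the tissue inhibitors of metalloproteinases (TIMPs), and the ADAM, ADAMTS and ADAMTS-like families. Members were the array rows annotated with exactly 1 gene symbol of these families, and where a gene had several rows, the one of highest average signal stood for it. This gave 77 of the 20259 genes tested, namely 22 Mmp, 4 Timp, 18 Adamts, 5 Adamtsl and 28 Adam genes. The arrays measured RNA from the quadriceps of 10-week-old male mice on a C57BL/6 background, 18 arrays in 6 groups with 3 biological replicates each. The study asked what blocking the myostatin pathway does to muscle that lacks dysferlin, a protein of muscle membrane repair. The groups were wild-type mice (wt), mice without dysferlin (Dysf-/-), mice with the F66 transgene, mice with both (F66;Dysf-/-), and wt and Dysf-/- mice injected with ACVR2B/Fc. F66 is 1 transgenic line, with the transgene on the Y chromosome, in which a skeletal muscle myosin light chain promoter and enhancer drive follistatin (Fst), a secreted protein that binds myostatin and related ligands. ACVR2B/Fc is a soluble activin type IIB receptor fused to an antibody Fc domain, given as 4 weekly intraperitoneal injections of 10 mg/kg (200 µg each) from 6 weeks of age. The other 4 groups are labelled as having no treatment, and whether they received vehicle is not stated for the arrays. Signals are the RMA values of the authors on the log2 scale, so a difference of 1 is a doubling of signal, and the level of one gene's row is not comparable with that of another.

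MMPs are zinc-dependent endopeptidases that are made as inactive precursors and, once activated, cut collagens, elastin, proteoglycans and many signalling proteins outside the cell. TIMPs bind the active site and block it, ADAMTS proteases cut proteoglycans and trim procollagens, and ADAMs are mostly membrane-bound proteases that shed the outer parts of other membrane proteins. In injured muscle these enzymes come from infiltrating leukocytes, fibroblasts and regenerating fibres, and they take part in clearing and rebuilding the matrix around the fibres.

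A run of Mmp genes on chromosome 9 held both the member that rose most and members that were not called or were lower, and their promoters are shown for that reason. In the reference table the protein-coding genes of this run are all members, 10 in number, in the order Mmp13, Mmp12, Mmp1b, Mmp3, Mmp1a, Mmp10, Mmp8, Mmp27, Mmp20 and Mmp7. The promoter windows of RefSeq (build GRCm38.p6, 250 bases before to 50 after the gene start) were searched on both strands for TGACTCA, the binding sequence of the AP-1 factors, which are classical regulators of collagenase and stromelysin genes. These letters were in a window of 7 of the 10 genes of the run, of 10 of the 48 members that matched the promoter table, and of 1607 of all 27025 genes in it (5.95%). The other 3 members with a match were Adam19, Adam29 and Adam1b. The stretches of the 7 genes follow, each with up to 30 bases on either side of the match, read 5′ to 3′ on the strand of the gene, with the match in capitals (TGACTCA, or TGAGTCA where the other strand carries it).
Mmp13: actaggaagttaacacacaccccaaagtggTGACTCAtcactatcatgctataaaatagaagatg
Mmp12: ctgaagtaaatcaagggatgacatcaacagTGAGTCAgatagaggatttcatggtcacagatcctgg
Mmp1b: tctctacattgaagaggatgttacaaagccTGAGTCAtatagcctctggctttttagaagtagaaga
Mmp3: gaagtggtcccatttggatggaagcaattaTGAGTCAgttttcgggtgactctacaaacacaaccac
Mmp1a: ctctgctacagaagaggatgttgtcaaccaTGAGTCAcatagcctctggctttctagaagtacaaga
Mmp10: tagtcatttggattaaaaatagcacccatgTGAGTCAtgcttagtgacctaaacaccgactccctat
Mmp7: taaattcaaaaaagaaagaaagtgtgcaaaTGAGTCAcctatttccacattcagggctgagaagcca
On GRCm38.p6 the stretches lie at chr9:7272449-7272513 for Mmp13, chr9:7347300-7347366 for Mmp12, chr9:7388083-7388149 for Mmp1b, chr9:7445746-7445812 for Mmp3, chr9:7464038-7464104 for Mmp1a, chr9:7502249-7502315 for Mmp10 and chr9:7691997-7692063 for Mmp7, all on the plus strand except Mmp1b, which is on the minus strand. The first base of the match lay 35 bases before the gene start in Mmp13, 44 in Mmp12, 46 in Mmp3, 63 in Mmp10 and in Mmp7, 73 in Mmp1a and 93 in Mmp1b. AGGAAG, a core sequence of the ETS factors, was in a window of 20 of the 48 members and of 38.4% of all genes. A match is a description of the letters only.

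Members of these families were higher mainly in muscle that had both the transgene and no dysferlin. Differences were tested with limma on all 18 arrays, with p-values adjusted over all genes tested by Benjamini-Hochberg, and a gene was called at an adjusted p under 0.05. In the test of any difference among the 6 groups, 49 of 77 members were called, against 49.2% of all genes. Between F66;Dysf-/- and Dysf-/- muscle, 30 members were called higher, where 15.2% of all genes were, and 13 were called lower, where 18.4% were. In F66 against wt muscle, 13 members were called higher (8.11% of all genes) and 4 lower (5.5%). The median log2 difference over the 77 members was 0.020 between F66;Dysf-/- and Dysf-/- and -0.0037 between F66 and wt, beside -0.086 and -0.028 over all genes. The smallest difference called higher between F66;Dysf-/- and Dysf-/- was 0.31, and the smallest called lower fell by 0.18. Among the members, the lower calls depended more on scaling than the higher ones. After each array was centred on its median, 33 members were called higher and 3 lower (Timp3, Timp4 and Adamts8), and after a further quantile normalization 30 were higher and 6 lower. Without F66;Dysf-/- replicate 1 the split was 28 higher and 5 lower. The shares of all genes called in these settings were not counted, so the shift cannot be read as particular to the members. In this comparison centring raised the median difference of all genes by 0.089 and the quantile normalization raised it by 0.053.

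**Figure D1:**
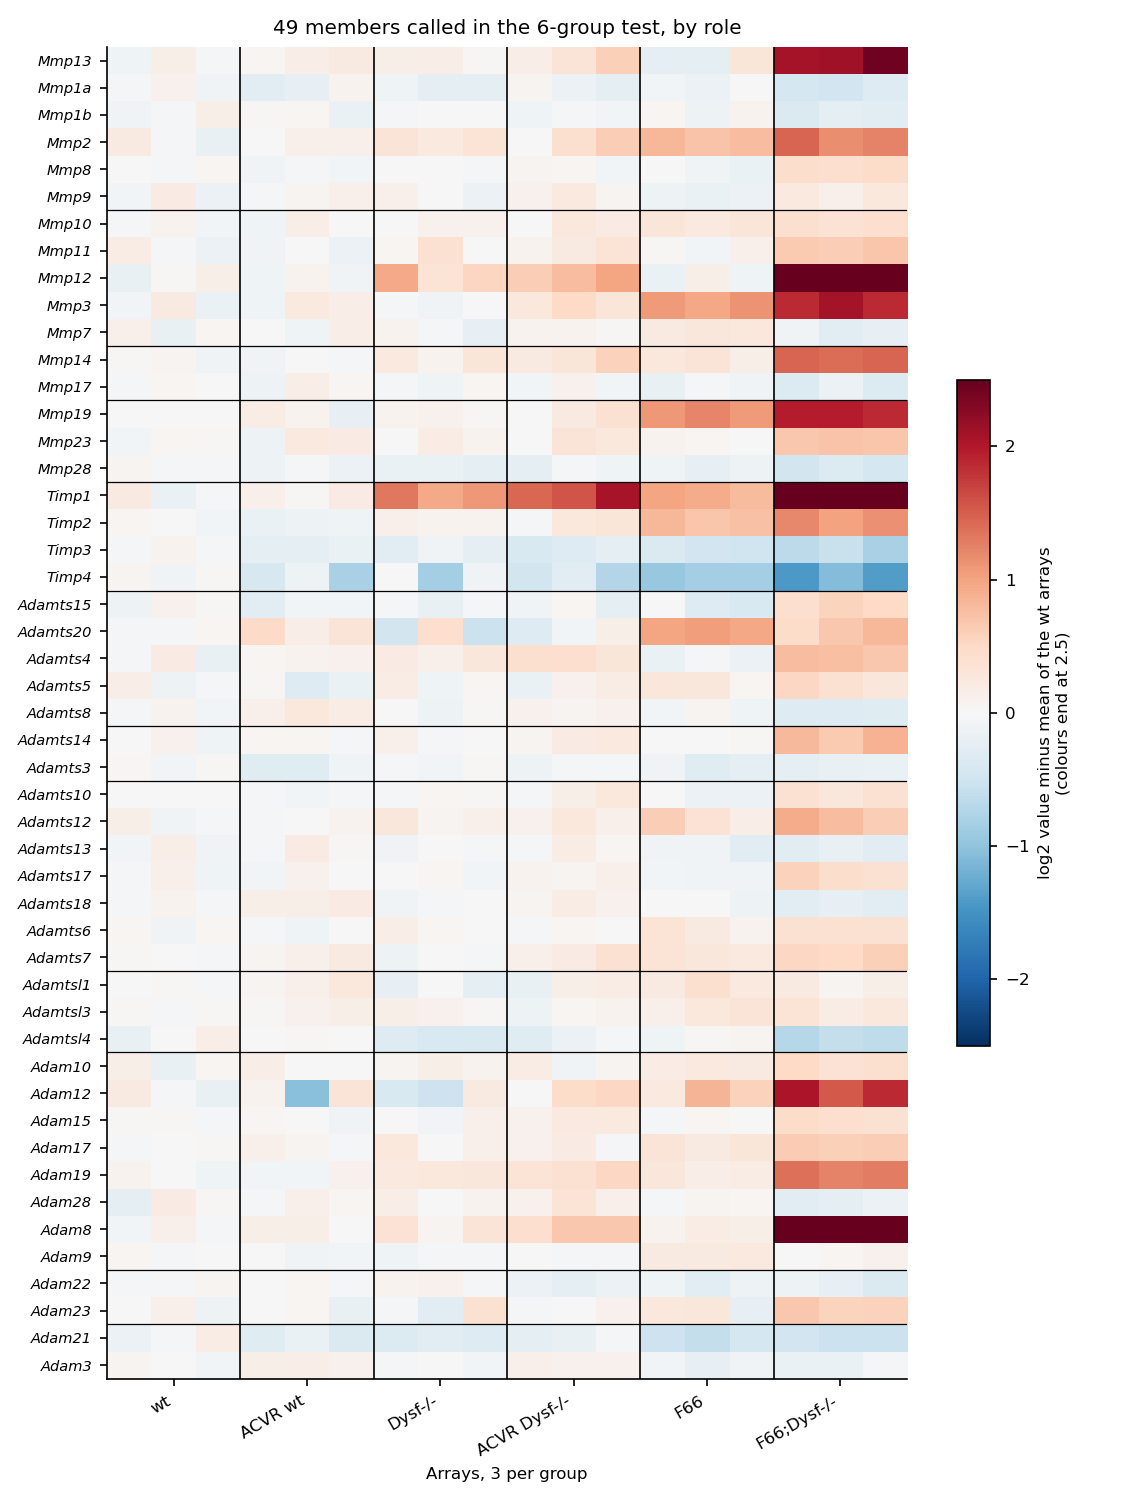
Heat map of the 49 members called in the 6-group test, 1 row a gene grouped by role and 1 column an array, with the colour giving the log2 value minus the mean of the wt arrays and ACVR marking groups injected with ACVR2B/Fc. Colours end at 2.5 and the values run from -1.43 to 3.83, with most of the strong increases in the F66;Dysf-/- columns.

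The labels held for the genes the study altered, and markers of several other cell types moved with the members. Dysf read 6.76 to 7.10 on the 9 arrays of Dysf-/- genotype and 8.48 to 8.91 on the other 9, and Fst read 5.92 to 6.38 on the 6 F66 arrays and 5.10 to 5.85 on the other 12. All 8 measured macrophage and monocyte markers were called higher in F66;Dysf-/- than in Dysf-/- muscle, 7 of 8 in F66 than in wt, and 4 of 8 in Dysf-/- than in wt. Their summed signal was 533 to 558 in wt, 830 to 1055 in Dysf-/-, 1200 to 1445 in F66 and 4742 to 5551 in F66;Dysf-/- muscle. All 5 measured fibroblast markers were called higher with the transgene in both backgrounds, with sums of 1396 to 1648 in wt, 1661 to 1808 in Dysf-/-, 2367 to 2547 in F66 and 4166 to 4608 in F66;Dysf-/-. Of 5 satellite cell and myoblast markers, 4 were called higher in F66;Dysf-/- than in Dysf-/- and 1 in F66 than in wt, with sums of 1048 to 1081 in wt and 2142 to 2498 in F66;Dysf-/-. Of 4 osteoclast markers, 3 and 2 were called higher in these comparisons, with sums of 252 to 281 in wt and 771 to 921 in F66;Dysf-/-, and of 3 mast cell markers 2 were in each, with sums of 154 to 168 and 219 to 262. Of 6 endothelial and pericyte markers, 3 were lower and 1 higher in the first and 4 lower in the second, with sums of 3180 to 3644 in wt, 2203 to 2552 in F66 and 2258 to 2915 in F66;Dysf-/-. Sums of the 8 neutrophil markers were 258 to 292 in wt and 222 to 245 in F66;Dysf-/-, and those of the 7 muscle fibre markers were 40663 to 43167 and 40387 to 41339. Between F66;Dysf-/- and Dysf-/-, 3 fibre markers (Ckm, Tnnt3 and Tnni2) and 1 neutrophil marker (Ly6g) were called lower. Between F66 and wt, 0 fibre markers were called and Ly6g was higher. Of 5 lymphocyte markers, 1 was higher and 1 lower in the former and 0 were called in the latter. Of 3 tendon markers, 1 was higher in the former and 1 lower in the latter. The part of cell composition in the results on the members was not tested. In whole muscle more cells of a type and more RNA per cell cannot be told apart.

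Among the collagenases and gelatinases, which open and then degrade fibrillar collagen, 3 of 6 members were higher, 1 was lower and 2 were not called between F66;Dysf-/- and Dysf-/- muscle. Mmp13, the interstitial collagenase of rodents, read 4.62, 4.89 and 4.69 on the wt arrays, 4.78, 4.91 and 4.96 in ACVR2B/Fc-injected wt, 4.88, 4.90 and 4.76 in Dysf-/-, 4.90, 5.05 and 5.34 in ACVR2B/Fc-injected Dysf-/-, 4.51, 4.50 and 5.04 in F66 and 6.82, 6.86 and 7.17 in F66;Dysf-/-. The F66;Dysf-/- arrays stood well above all others, and the injected Dysf-/- arrays lay just above those of wt and Dysf-/-. Mmp13 was 4.3-fold higher in F66;Dysf-/- than in Dysf-/- muscle (log2 difference 2.11, SE 0.14, adjusted p = 1.84e-08), while F66 minus wt was -0.054 with a 95% interval of -0.36 to 0.25. Mmp8, the neutrophil collagenase, read 4.34, 4.28 and 4.37 on the wt arrays, 4.24, 4.31 and 4.27 in ACVR2B/Fc-injected wt, 4.32, 4.32 and 4.31 in Dysf-/-, 4.40, 4.39 and 4.27 in ACVR2B/Fc-injected Dysf-/-, 4.31, 4.24 and 4.17 in F66 and 4.77, 4.74 and 4.80 in F66;Dysf-/-. It is a dim row with a small shift, and again the 3 F66;Dysf-/- arrays were higher than the other 15. The difference of 0.46 (SE 0.051, adjusted p = 4.86e-06) was called in the Dysf-/- background, and -0.09 in the wt background was not.

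Mmp2, gelatinase A, made by fibroblasts and activated at the cell surface by Mmp14, rose with the transgene in both backgrounds. Its log2 difference was 0.98 (SE 0.13, adjusted p = 2.78e-05) between F66;Dysf-/- and Dysf-/- and 0.77 (adjusted p = 0.000824) between F66 and wt, and the difference of these effects was 0.20 with a 95% interval of -0.19 to 0.59. Mmp9, gelatinase B of leukocytes, was not called with the transgene in either background, at 0.22 in Dysf-/- (0.029 to 0.41) and -0.14 in wt (-0.33 to 0.047). It was 1.28-fold higher in F66;Dysf-/- than in F66 muscle (adjusted p = 0.00607). The mouse collagenase genes Mmp1a and Mmp1b are near copies, and whether their probes tell them apart was not tested. Mmp1b fell by 0.26 between F66;Dysf-/- and Dysf-/- (adjusted p = 0.0142), a call that was lost on centring each array (adjusted p = 0.114), and Mmp1a differed there by -0.21 (adjusted p = 0.102). Both were lower in F66;Dysf-/- than in F66 muscle, by 0.33 for Mmp1a and 0.29 for Mmp1b on the log2 scale, calls that a further quantile normalization ended (adjusted p = 0.0687 and 0.0629).

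Of the stromelysins, matrilysin and macrophage elastase, enzymes of broad matrix specificity, 4 of 5 were higher in F66;Dysf-/- than in Dysf-/- muscle. Mmp12, the macrophage elastase, had the largest difference of all members. It read 4.39, 4.63 and 4.74 on the wt arrays, 4.49, 4.68 and 4.51 in ACVR2B/Fc-injected wt, 5.55, 4.93 and 5.13 in Dysf-/-, 5.21, 5.37 and 5.58 in ACVR2B/Fc-injected Dysf-/-, 4.43, 4.73 and 4.49 in F66 and 8.42, 8.25 and 8.33 in F66;Dysf-/-. The F66 and wt values overlapped, the Dysf-/- values lay just above them, and F66;Dysf-/- stood far above every other array. The increase over Dysf-/- was 8.76-fold (log2 difference 3.13, SE 0.14, adjusted p = 4.03e-10), and F66 minus wt was -0.043 with an interval of -0.34 to 0.25. Mmp3, stromelysin-1, an activator of other proMMPs, read 4.44, 4.73 and 4.34 on the wt arrays, 4.39, 4.74 and 4.67 in ACVR2B/Fc-injected wt, 4.46, 4.41 and 4.49 in Dysf-/-, 4.76, 4.99 and 4.81 in ACVR2B/Fc-injected Dysf-/-, 5.58, 5.46 and 5.63 in F66 and 6.37, 6.59 and 6.36 in F66;Dysf-/-. Here the F66 arrays already stood above all arrays without the transgene, and the F66;Dysf-/- arrays were higher again. Mmp3 was 2.08-fold higher in F66 than in wt (adjusted p = 9.96e-06) and 3.96-fold higher in F66;Dysf-/- than in Dysf-/- muscle (adjusted p = 2.18e-09).

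The 3 other genes of this group moved less. Mmp10, stromelysin-2, rose by 0.33 in the Dysf-/- background (adjusted p = 0.00484) and by 0.28 in the wt background (adjusted p = 0.0305), the latter call being lost without any 1 of 5 arrays. Mmp11, stromelysin-3, known from stromal cells, rose by 0.51 in the Dysf-/- background (adjusted p = 0.00113), and F66 minus wt was 0.032 (-0.19 to 0.25). Mmp7, matrilysin, an enzyme of epithelia, was not called with the transgene in either background, at -0.14 and 0.25. It fell by 0.44 between F66;Dysf-/- and F66 muscle (adjusted p = 0.00129).

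Along the chromosome 9 run, the genes that rose and those that did not were interleaved. Between F66;Dysf-/- and Dysf-/- muscle, Mmp13, Mmp12, Mmp3, Mmp10 and Mmp8 were higher, Mmp1b and Mmp20 were lower, and Mmp1a, Mmp27 and Mmp7 were not called. Of the 7 genes with the AP-1 letters, 4 rose (Mmp13, Mmp12, Mmp3 and Mmp10), and of the 3 without them 1 rose (Mmp8). Mmp1b and Mmp1a, which carry the letters at 93 and 73 bases before the start, flank Mmp3 on either side.

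**Figure D2:**
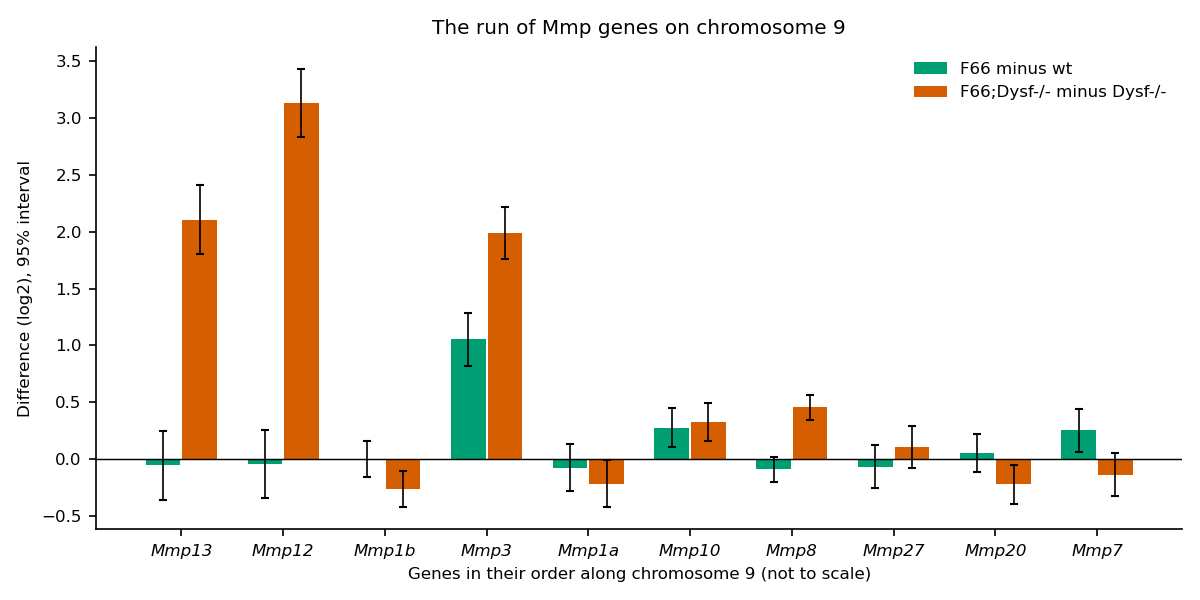
Log2 difference with the F66 transgene for the 10 Mmp genes in their order along chromosome 9, in the wt background (green) and the Dysf-/- background (orange), with 95% intervals from limma. Mmp12 has the tallest bar, 3.13 in the Dysf-/- background beside -0.043 in the wt background, and Mmp3 is the one gene of the run with a difference over 1 in both.

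The membrane-type MMPs act at the cell surface, and 1 of 5 was higher in F66;Dysf-/- than in Dysf-/- muscle. This was Mmp14, a collagenase of the cell surface that activates proMMP2 with the help of Timp2. It read 6.36, 6.41 and 6.25 on the wt arrays, 6.26, 6.34 and 6.29 in ACVR2B/Fc-injected wt, 6.59, 6.43 and 6.64 in Dysf-/-, 6.57, 6.64 and 6.91 in ACVR2B/Fc-injected Dysf-/-, 6.61, 6.66 and 6.48 in F66 and 7.79, 7.74 and 7.79 in F66;Dysf-/-. The F66;Dysf-/- arrays were higher than all others, and the Dysf-/-, injected Dysf-/- and F66 arrays overlapped. Mmp14 was 2.33-fold higher in F66;Dysf-/- than in Dysf-/- muscle (log2 difference 1.22, SE 0.083, adjusted p = 1.82e-08), and F66 minus wt was 0.24 (0.069 to 0.42, adjusted p = 0.0632). Mmp17, which is anchored by a lipid, fell by 0.25 (adjusted p = 0.0226), a call lost on centring each array (adjusted p = 0.0932). Mmp16, Mmp24 and Mmp25 were called in no comparison, with intervals between -0.40 and 0.41 for every transgene effect and their differences.

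Among the MMPs outside these classes, 2 of 6 were higher and 2 lower between F66;Dysf-/- and Dysf-/- muscle. Mmp19, an enzyme of stromal cells and macrophages, read 5.58, 5.60 and 5.56 on the wt arrays, 5.76, 5.67 and 5.38 in ACVR2B/Fc-injected wt, 5.67, 5.69 and 5.61 in Dysf-/-, 5.59, 5.80 and 5.96 in ACVR2B/Fc-injected Dysf-/-, 6.67, 6.81 and 6.64 in F66 and 7.54, 7.54 and 7.45 in F66;Dysf-/-. Both F66 groups stood above every array without the transgene, with no overlap between them. The increase was 2.19-fold in F66 against wt (adjusted p = 1.59e-06) and 3.61-fold in F66;Dysf-/- against Dysf-/- (adjusted p = 1.38e-09), the largest difference of any member in the wt background. Mmp23 rose by 0.60 in the Dysf-/- background (SE 0.093, adjusted p = 0.000129) and differed by 0.05 in the wt background (-0.15 to 0.25). Mmp28, epilysin, fell by 0.21 (adjusted p = 0.0124) and Mmp20, the enamel protease, by 0.22 (adjusted p = 0.0459), and both calls were lost on centring (adjusted p = 0.139 and 0.273). Mmp21 and Mmp27 were not called.

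The 4 TIMPs split into a pair that rose and a pair that fell with the transgene, in both backgrounds. Timp1, an inducible secreted inhibitor, read 5.55, 5.17 and 5.28 on the wt arrays, 5.46, 5.37 and 5.54 in ACVR2B/Fc-injected wt, 6.66, 6.28 and 6.43 in Dysf-/-, 6.77, 6.91 and 7.40 in ACVR2B/Fc-injected Dysf-/-, 6.32, 6.26 and 6.12 in F66 and 8.55, 8.24 and 8.41 in F66;Dysf-/-. Its values were lowest in wt and injected wt muscle, higher in Dysf-/- and F66 muscle, and highest in F66;Dysf-/-, with no overlap between wt and any of the last 3 groups. Timp1 rose 2.18-fold in Dysf-/- against wt (adjusted p = 0.00161), 1.87-fold in F66 against wt (adjusted p = 0.000583) and 3.84-fold in F66;Dysf-/- against Dysf-/- (adjusted p = 5.77e-08). Timp2, the inhibitor that also takes part in activating Mmp2, read 9.07, 9.03 and 8.95 on the wt arrays, 8.86, 8.88 and 8.91 in ACVR2B/Fc-injected wt, 9.15, 9.11 and 9.11 in Dysf-/-, 8.99, 9.28 and 9.31 in ACVR2B/Fc-injected Dysf-/-, 9.85, 9.70 and 9.75 in F66 and 10.21, 10.02 and 10.16 in F66;Dysf-/-. Both F66 groups lay above all arrays without the transgene, and Timp2 was 1.68-fold higher in F66 than in wt (adjusted p = 1.03e-05) and 2.01-fold higher in F66;Dysf-/- than in Dysf-/- muscle (adjusted p = 7.65e-08).

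Timp3, which binds to the matrix and also inhibits ADAMs and ADAMTS proteases, averaged 8.63 ± 0.074 (SD, n = 3) in wt, 8.43 ± 0.099 in Dysf-/-, 8.18 ± 0.069 in F66 and 7.96 ± 0.12 in F66;Dysf-/- muscle. It fell by 0.47 between F66;Dysf-/- and Dysf-/- (SE 0.072, adjusted p = 9.61e-05) and by 0.45 between F66 and wt (adjusted p = 0.000558). Timp4, the TIMP known for its level in heart and muscle, averaged 9.08 ± 0.081 in wt, 8.77 ± 0.47 in Dysf-/-, 8.19 ± 0.059 in F66 and 7.78 ± 0.20 in F66;Dysf-/- muscle. The spread in Dysf-/- came from replicate 2, which at 8.23 lay within the range of F66, while the other Dysf-/- arrays lay within that of wt. Timp4 fell by 0.99 in the Dysf-/- background (SE 0.20, adjusted p = 0.00112) and by 0.89 in the wt background (adjusted p = 0.00698). The differences between the effects in the 2 backgrounds were -0.027 for Timp3 (-0.24 to 0.19) and -0.10 for Timp4 (-0.70 to 0.49), and neither was called.

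**Figure D3:**
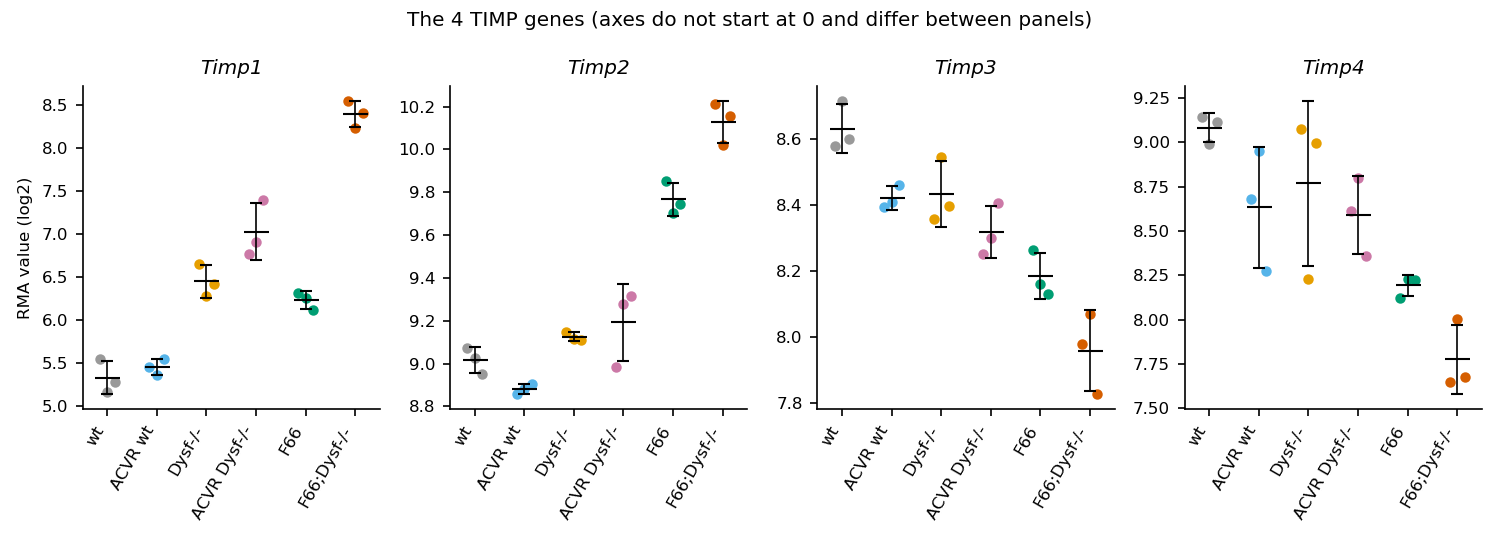
Log2 RMA value of the 4 TIMP genes on every array, by group, with the mean and SD of 3 arrays as bars (axes do not start at 0). Groups marked ACVR were injected with ACVR2B/Fc, and Timp1 and Timp2 are highest in F66;Dysf-/- muscle, at means of 8.40 and 10.13, and Timp3 and Timp4 are lowest there, at 7.96 and 7.78.

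ADAMTS proteases that cut aggrecan, versican and other proteoglycans numbered 7, and 4 were higher and 1 lower in F66;Dysf-/- than in Dysf-/- muscle. Adamts4, an aggrecanase, read 5.86, 6.09 and 5.69 on the wt arrays, 5.93, 5.98 and 5.99 in ACVR2B/Fc-injected wt, 6.09, 6.00 and 6.16 in Dysf-/-, 6.27, 6.30 and 6.19 in ACVR2B/Fc-injected Dysf-/-, 5.72, 5.84 and 5.74 in F66 and 6.66, 6.64 and 6.55 in F66;Dysf-/-. The F66;Dysf-/- arrays were the highest and the F66 arrays lay within the range of wt. Adamts4 rose by 0.53 in the Dysf-/- background (SE 0.081, adjusted p = 0.000104), and F66 minus wt was -0.12 (-0.29 to 0.054). Adamts20, a versicanase, was 2-fold higher in F66 than in wt (adjusted p = 0.00234) and 1.8-fold higher in F66;Dysf-/- than in Dysf-/- (adjusted p = 0.00288), with a difference between the effects of -0.15 (-0.73 to 0.43). Adamts15, which cuts versican and aggrecan, was 1.65-fold higher in F66;Dysf-/- than in F66 muscle (adjusted p = 6.75e-05). Adamts8 fell by 0.28 between F66;Dysf-/- and Dysf-/- (adjusted p = 0.00259). Adamts5, also called higher there, lies outside the rule for naming genes and is given because its rows disagree. The row used gave 0.34 over Dysf-/-, and its other rows gave 0.24, 0.18 and -0.91. With p adjusted over all rows none was called in this comparison, including the row used (adjusted p = 0.171). For F66 minus wt the row used gave 0.20 and the others 0.41, -0.72 and 0.058.

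Adamts14 and Adamts3 remove the N-propeptide of procollagens, a step in making fibrillar collagen. Adamts14 read 6.39, 6.49 and 6.27 on the wt arrays, 6.44, 6.44 and 6.36 in ACVR2B/Fc-injected wt, 6.51, 6.35 and 6.40 in Dysf-/-, 6.46, 6.60 and 6.63 in ACVR2B/Fc-injected Dysf-/-, 6.39, 6.38 and 6.41 in F66 and 7.20, 7.04 and 7.25 in F66;Dysf-/-. The F66;Dysf-/- arrays were higher than the other 15, among which the injected Dysf-/- arrays lay just above those of F66 and injected wt. The increase over Dysf-/- was 1.67-fold (log2 difference 0.74, SE 0.071, adjusted p = 8.83e-07), and F66 minus wt was 0.01 (-0.14 to 0.16). A second row of Adamts14, which like the first lies among rows of chromosome 10, gave a larger difference over Dysf-/- of 1.85 (SE 0.33 in a fit of all rows). The mean of both rows gave 1.29, while F66 minus wt on the second row was -0.0066. Adamts3 was not called with the transgene in either background, at -0.17 in Dysf-/- (-0.31 to -0.024) and -0.21 in wt (-0.35 to -0.063).

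Of the 9 other ADAMTS genes, 5 were higher and 1 lower between F66;Dysf-/- and Dysf-/- muscle. Adamts12, which cuts cartilage oligomeric matrix protein (COMP), rose by 0.61 (adjusted p = 0.000386) in the Dysf-/- background and by 0.38 (adjusted p = 0.0264) in the wt background, lost without any 1 of 4 arrays, and Adamts7, with the same substrate, rose by 0.29 in the latter (adjusted p = 0.0076). Adamts6, Adamts10 and Adamts17 were higher as well, and Adamts18 fell by 0.22 (adjusted p = 0.00625), a call lost on centring (adjusted p = 0.0671). Among the ADAMTS-like genes, matrix proteins without the protease domain, Adamtsl4, which binds fibrillin microfibrils, fell by 0.29 between F66;Dysf-/- and Dysf-/- (adjusted p = 0.0134, and 0.0799 on centring) and by 0.65 between F66;Dysf-/- and F66 (adjusted p = 1.82e-05). Adamtsl3 rose by 0.23 in F66 against wt (adjusted p = 0.0359), a call lost without any 1 of 5 arrays.

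Of the 9 ADAMs of somatic tissues with an active protease domain, 6 were higher and 1 lower in F66;Dysf-/- than in Dysf-/- muscle. Adam8, a sheddase of myeloid cells and osteoclasts, had the smallest p of all members in the 6-group test (adjusted p = 7.19e-11). It read 6.17, 6.38 and 6.20 on the wt arrays, 6.39, 6.39 and 6.23 in ACVR2B/Fc-injected wt, 6.60, 6.33 and 6.57 in Dysf-/-, 6.66, 6.92 and 6.93 in ACVR2B/Fc-injected Dysf-/-, 6.35, 6.43 and 6.40 in F66 and 8.88, 8.76 and 8.86 in F66;Dysf-/-. The wt, injected wt and F66 arrays overlapped, the injected Dysf-/- arrays were slightly higher, and F66;Dysf-/- was well above all of them. Adam8 was 5.05-fold higher in F66;Dysf-/- than in Dysf-/- muscle (log2 difference 2.34, SE 0.088, adjusted p = 2.01e-10), and F66 minus wt was 0.14 (-0.047 to 0.33). Adam19 (meltrin beta), an adhesion and shedding enzyme of developing muscle, heart and nerve, read 6.44, 6.36 and 6.23 on the wt arrays, 6.29, 6.28 and 6.44 in ACVR2B/Fc-injected wt, 6.58, 6.61 and 6.63 in Dysf-/-, 6.70, 6.73 and 6.85 in ACVR2B/Fc-injected Dysf-/-, 6.62, 6.51 and 6.54 in F66 and 7.73, 7.59 and 7.62 in F66;Dysf-/-. The F66;Dysf-/- arrays were far above the rest, the injected Dysf-/- arrays lay just above those of Dysf-/- and F66, and these in turn lay above wt. The increase over Dysf-/- was 2.06-fold (adjusted p = 1.17e-08), beside 0.21 for F66 minus wt (0.067 to 0.35, adjusted p = 0.0509).

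Adam12 (meltrin alpha), known for its expression in regenerating muscle, was 4.11-fold higher in F66;Dysf-/- than in Dysf-/- muscle (log2 difference 2.04, SE 0.30, adjusted p = 6.65e-05). The row that stands for Adam12 is uncertain. The gene is on chromosome 7, but 11 of the 15 named rows nearest in the array's numbering belong to genes of chromosome 17, whereas a second Adam12 row lies among 14 rows of chromosome 7. On that second row the values were 5.33 to 5.43 in Dysf-/- and 5.86 to 5.93 in F66;Dysf-/- muscle. The difference was 0.52 (SE 0.080 in a fit of all rows), and the difference between the effects in the 2 backgrounds was 0.26 in place of 1.48. Adam17, the TNF-alpha sheddase, rose by 0.29 in F66 against wt (adjusted p = 0.0139), a call lost without F66 replicate 1 (adjusted p = 0.051), and its single row also lay among rows of other chromosomes. Adam9 rose by 0.24 in F66 against wt (adjusted p = 0.00421). Adam10, a sheddase of Notch, and Adam15 were higher in F66;Dysf-/- than in Dysf-/- muscle, and Adam28, known from lymphocytes, fell by 0.30 (adjusted p = 0.0241, and 0.075 on centring).

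Of the 3 ADAMs that lack an active site and act as ligand-binding proteins, known from nerve, Adam23 was higher in F66;Dysf-/- than in Dysf-/- muscle and Adam22 fell by 0.27 (adjusted p = 0.00636, and 0.0861 on centring). ADAMs known mainly from testis and epididymis made up 16 members, of which 2 were called lower with the transgene in the wt background and another 2 in the Dysf-/- background. Adam21 fell by 0.52 in F66 against wt (adjusted p = 0.000557) and Adam1a by 0.28 (adjusted p = 0.0442), the latter call being lost under 20 of 28 alternative settings. Adam7 fell by 0.24 between F66;Dysf-/- and Dysf-/- (adjusted p = 0.044, and 0.182 on centring). Between F66;Dysf-/- and F66, Adam6b fell by 0.40, Adam24 by 0.30 and Adam20 by 0.20 (adjusted p = 0.049, 0.0396 and 0.042), and centring ended all 3 calls. Over all families, 28 members had a mean over all arrays below the median of all rows (5.37), where part of the signal is background. Of these, 4 were called higher and 6 lower between F66;Dysf-/- and Dysf-/-, compared with 26 and 7 of the other 49. That mean includes the F66;Dysf-/- arrays, so a member high there is more easily placed above the median, as Mmp12 was at 5.44. The shares of all genes called below and above the median were not counted. These counts are therefore no result about the members.

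**Figure D4:**
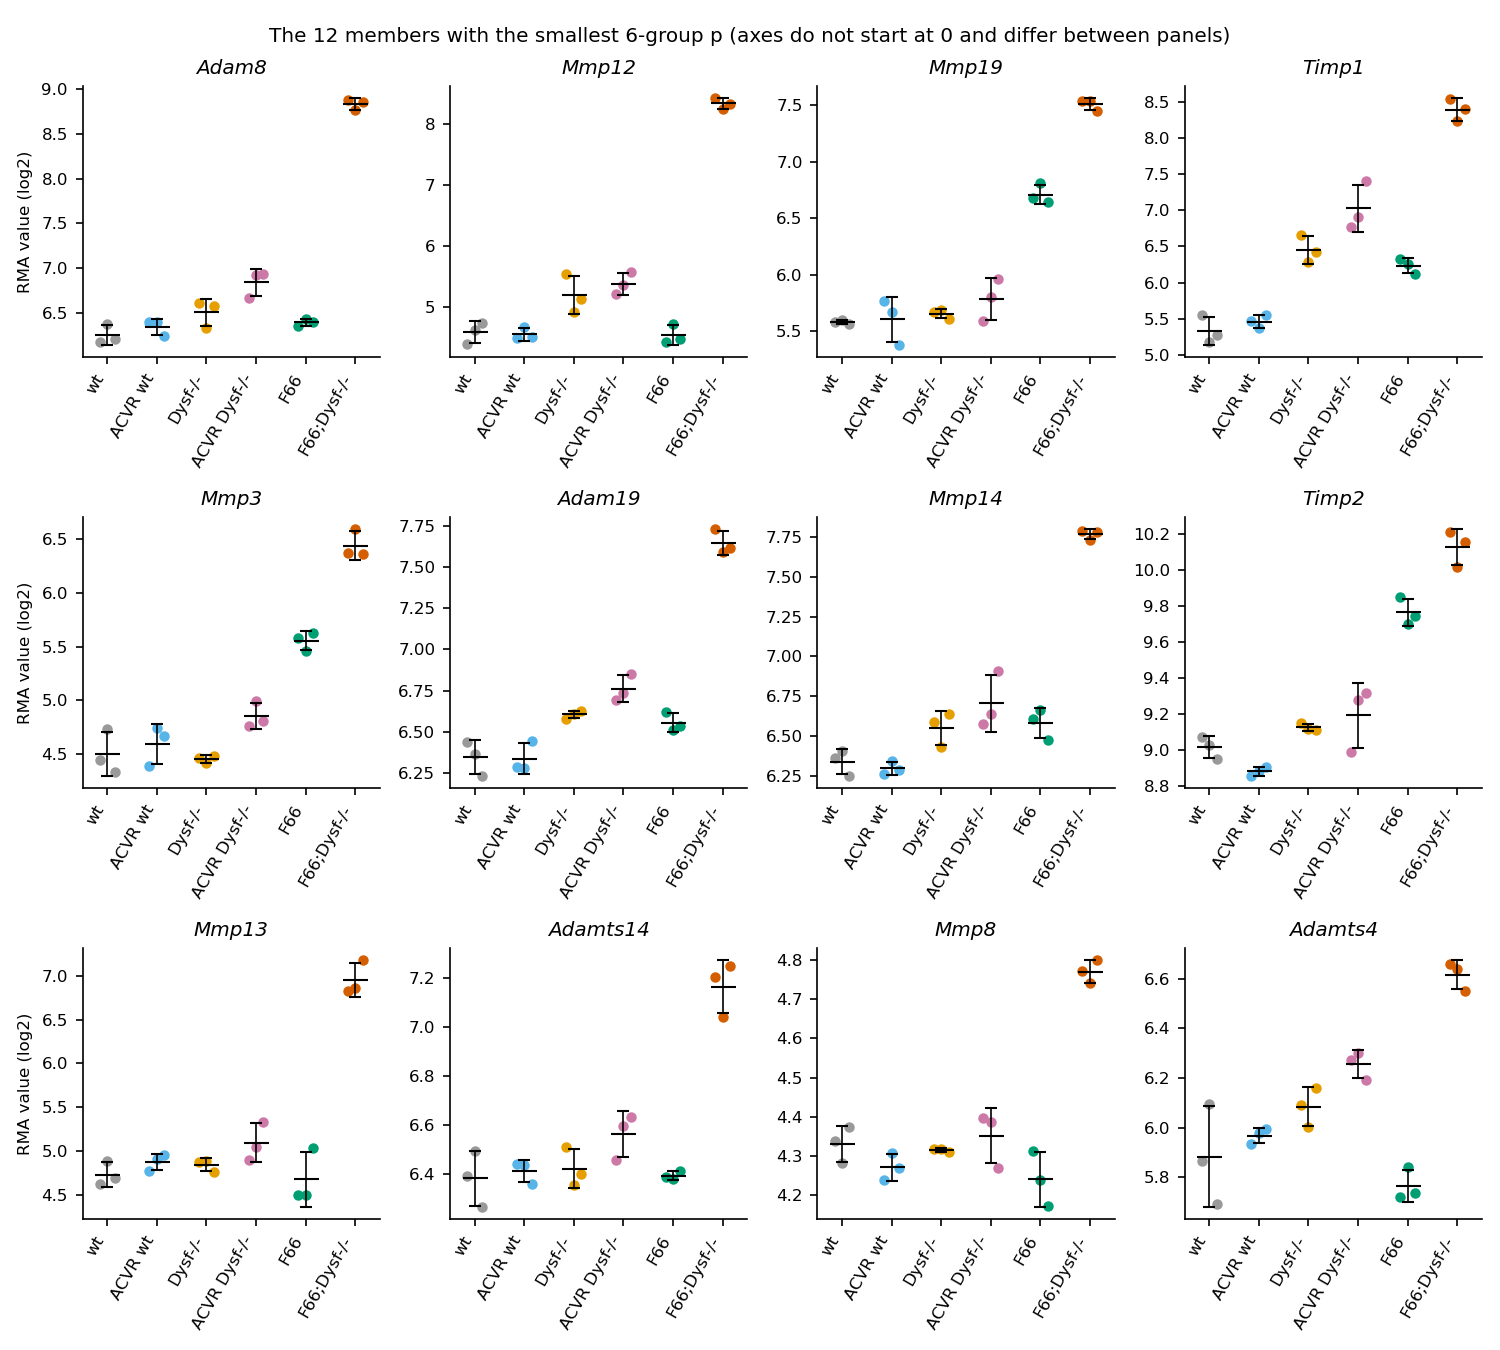
Log2 RMA value on every array for the 12 members with the smallest p in the 6-group test, by group, with the mean and SD of 3 arrays as bars (axes do not start at 0 and differ between panels, and ACVR marks groups injected with ACVR2B/Fc). In every panel the F66;Dysf-/- arrays are the highest, and in the panels of Mmp19, Mmp3 and Timp2 the F66 arrays are also above all arrays without the transgene.

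The effect of the transgene was next compared between the backgrounds, a comparison in which the F66;Dysf-/- and Dysf-/- arrays stand against the F66 and wt arrays and no array is shared. The difference of the effects was called higher in the Dysf-/- background for 19 of 77 members, where 8.54% of all genes were, and lower for 1, where 7.93% were. Mmp12 had the largest difference, 3.17 (SE 0.20, adjusted p = 2.49e-07), followed by Adam8 at 2.19 (SE 0.12) and Mmp13 at 2.16 (SE 0.20). Of the 19, 4 were called higher with the transgene in both backgrounds (Timp1, Mmp3, Mmp19 and Adamts7), and their increase was larger without dysferlin. The other 15 were not called in the wt background: Mmp8, Mmp11, Mmp12, Mmp13, Mmp14, Mmp23, Adam8, Adam12, Adam15, Adam19, Adamts4, Adamts10, Adamts14, Adamts15 and Adamts17. Adam12 is placed here by its uncertain row. With its other row put in its place, at 0.26 for F66 minus wt, Adam12 was called higher in the wt background too. With p adjusted over all rows, that row was not called there (adjusted p = 0.136). With the row exchanged, 14 members in place of 13 were called higher in the wt background. A further 7 members rose in both backgrounds with no called difference between them, namely Mmp2, Mmp10, Timp2, Adam17, Adamts6, Adamts12 and Adamts20, and Timp3 and Timp4 fell in both. The 1 lower member was Mmp7, at -0.39 (adjusted p = 0.0475), a call lost under 18 of 26 alternative settings, and with single arrays left out the count of lower members was 0 to 2. Neither transgene effect was called for Mmp7, while its fall between F66;Dysf-/- and F66 muscle, given above, was. The call for Adam12 was lost without any 1 of 5 arrays and that for Mmp11 without any 1 of 7. The macrophage markers given above moved in the same way, with summed signals in F66;Dysf-/- muscle above those of every other group, and their part in these differences was not tested.

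**Figure D5:**
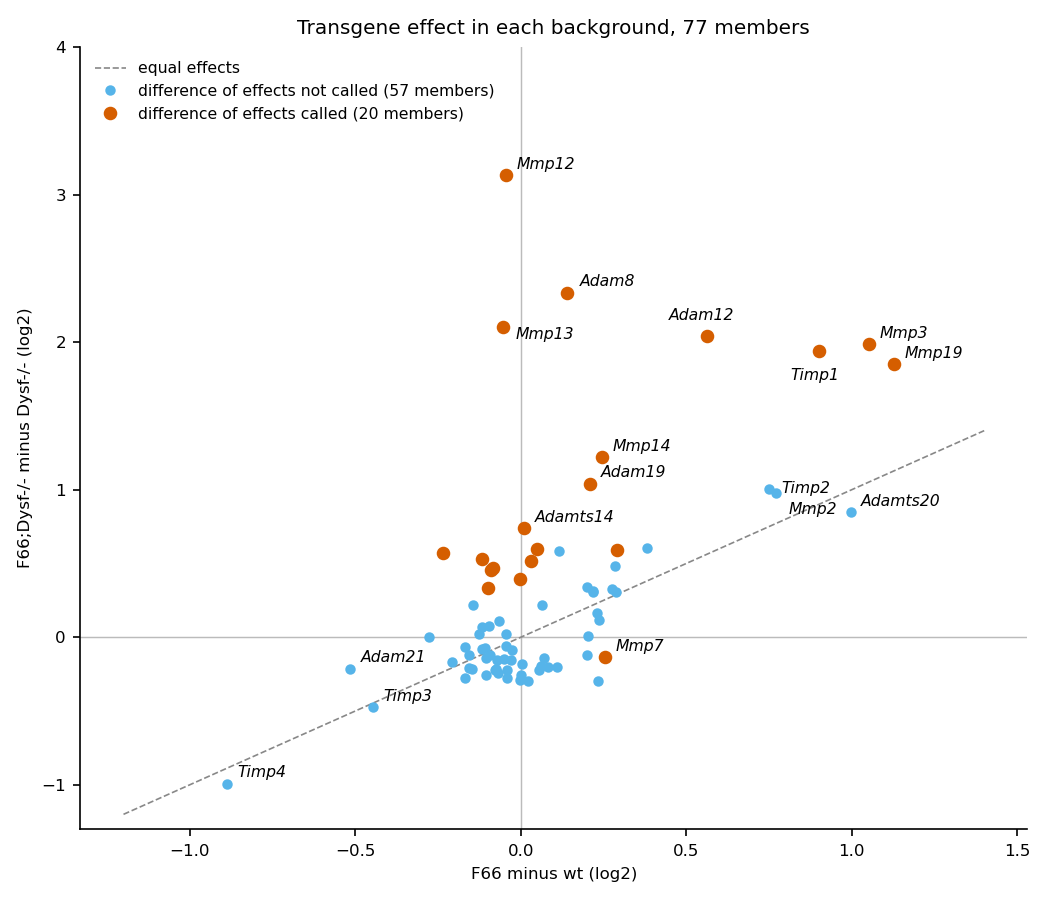
Log2 difference with the F66 transgene in the wt background (x axis) against that in the Dysf-/- background (y axis) for the 77 members, with orange points where the difference of the effects was called (20 members) and blue points where it was not (57), and a dashed line of equal effects. Mmp12, Adam8 and Mmp13 lie near 0 on the x axis and above 2 on the y axis, while Timp2, Mmp2, Adamts20, Timp3 and Timp4 lie near the dashed line.

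The loss of dysferlin was also read with the transgene present. Between F66;Dysf-/- and F66 muscle, 26 members were called higher, where 14.5% of all genes were, and 13 lower, where 20.3% were. Mmp12 was 13.8-fold higher (log2 difference 3.79, SE 0.14), Adam8 5.45-fold, Mmp13 4.83-fold and Timp1 4.48-fold. Mmp14 at 1.19, Adam19 at 1.09, Mmp3 at 0.88, Adamts4 at 0.85 and Mmp19 at 0.80 on the log2 scale were among the others. On centring each array the split was 27 higher and 7 lower, and without F66;Dysf-/- replicate 3 it was 25 higher and 8 lower. The shares of all genes called in these settings were not counted, and centring raised the median difference of all genes by 0.049. This comparison shares the F66;Dysf-/- arrays with the one against Dysf-/-.

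The calls were also read with each of the 18 arrays left out in turn. Of 92 calls of named members, 72 held throughout. Those of Adamtsl4, Mmp1b and Mmp28 in F66;Dysf-/- against Dysf-/- were lost without F66;Dysf-/- replicate 1 (adjusted p = 0.0591, 0.0677 and 0.0575). In the same comparison Adam28 was lost without any 1 of 4 arrays, Mmp17 without 3, Adam7 without 10 and Mmp20 without 13. Adam1a in F66 against wt was lost without 15. In F66;Dysf-/- against F66, Mmp1a was lost without F66 replicate 3 or F66;Dysf-/- replicate 2, Timp3 without F66 replicate 1 or F66;Dysf-/- replicate 3, Adam24 without any 1 of 5 arrays, Adam20 without 8 and Adam6b without 12. The highest adjusted p among these was 0.203, for Adam7.

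Without the transgene, the loss of dysferlin changed 1 member, Timp1, beside 0.489% of all genes, and 13 members were at an unadjusted p under 0.05, beside 9.84% of all genes. Timp1 was called in Dysf-/- against wt with each array left out in turn, with an adjusted p of at most 0.0157, and was not called by an ordinary gene-by-gene test without moderated variances (adjusted p = 0.412). Mmp12 was 0.61 higher without passing the threshold (0.32 to 0.91, adjusted p = 0.0768). It passed when Dysf-/- replicate 2 was left out (0.75, adjusted p = 0.0386), when arrays were quantile normalized again (adjusted p = 0.0468), and when dim genes were left out (adjusted p = 0.0484). The filter on dim genes used the mean over all arrays, 5.44 for Mmp12 beside a limit of 5.37. That mean includes the high F66;Dysf-/- arrays, which are outside this comparison, so passing under the filter is no separate support. Adamtsl4 was -0.36 (-0.54 to -0.19, adjusted p = 0.0768) and Adam19 0.26 (0.12 to 0.40, adjusted p = 0.132). Adamtsl4 passed without wt replicate 1 (-0.45, adjusted p = 0.0243). The 3 genes beside Timp1 were chosen after their values were seen.

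Injection of ACVR2B/Fc changed no member in either genotype at the adjusted threshold of limma, and the ordinary gene-by-gene test called none either. In wt mice the 77 members gave 0 calls beside 0.0296% of all genes, and 8 had an unadjusted p under 0.05, beside 7.61%. The smallest p was that of Adamts3, at -0.24 (-0.38 to -0.095, adjusted p = 0.306). In Dysf-/- mice there were 0 calls beside 0.0247% of all genes, and 12 members had an unadjusted p under 0.05, beside 18.8%. The members nearest the threshold were Adamts7 at 0.29 (0.15 to 0.43, adjusted p = 0.081), Timp1 at 0.57 (0.26 to 0.88, adjusted p = 0.0955), Adam8 at 0.34 (0.15 to 0.52, adjusted p = 0.0986) and Mmp3 at 0.40 (0.17 to 0.63, adjusted p = 0.102). These 5 genes were chosen after their values were seen. When the injected Dysf-/- replicate 1 was left out, Adam8 at 0.43, Adamts7 at 0.35 and Timp1 at 0.70 passed (adjusted p = 0.0334, 0.0307 and 0.0355), while 2.83% of all genes were then called. For the TIMPs, the injection differences in wt were 0.12 for Timp1 (-0.19 to 0.43), -0.13 for Timp2 (-0.30 to 0.03), -0.21 for Timp3 (-0.36 to -0.058) and -0.45 for Timp4 (-0.87 to -0.026). In Dysf-/- they were 0.067 for Timp2 (-0.10 to 0.23), -0.11 for Timp3 (-0.27 to 0.038) and -0.18 for Timp4 (-0.60 to 0.24), beside the 0.57 of Timp1. The effect of ACVR2B/Fc differed between the genotypes for 0 members, beside 0.00494% of all genes, with 3 members at an unadjusted p under 0.05 beside 7.75%. For this difference no other tool was run.

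Other genes of matrix proteolysis and the proteins these enzymes cut were read from lists of non-members. Of 35 measured genes of matrix proteolysis outside the families, 14 were higher and 8 lower between F66;Dysf-/- and Dysf-/- muscle. Between F66 and wt, 15 were higher and 1 lower. Over all genes, 15.2% were higher and 18.4% lower in the former comparison, and 8.11% and 5.5% in the latter. Those with the smallest p in the Dysf-/- background were the lysosomal proteases Ctss (2.11), Ctsk (1.70), a strong collagenase of osteoclasts, and Ctsb (1.20), the clearance receptor Lrp1 (1.27), the heparanase gene Hpse (0.96) and the plasminogen activator Plau (1.09), all as log2 differences. In the wt background they were Tll2 (1.00), of the tolloid proteases, Ctsk (1.00), Reck (0.80), a membrane-bound MMP inhibitor, Dpp4 (0.73), a peptidase of the cell surface, Lrp1 (0.66) and Plau (0.71). Ctss was the 1 gene of this list called in Dysf-/- against wt, at 0.89 (adjusted p = 0.000207). Of 18 measured matrix proteins, 17 were higher and 1 lower (Acan) between F66;Dysf-/- and Dysf-/- and 14 were higher between F66 and wt. Col3a1, the chain of type III collagen, rose by 1.65 in the Dysf-/- and 1.17 in the wt background, and Fn1, which encodes fibronectin, by 1.79 and 1.41. Tnc, which encodes tenascin-C of healing tissue, rose by 1.59 in the Dysf-/- background and was -0.27 in the wt background, with a called difference of 1.85 (adjusted p = 4.76e-07).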

How the data were processed

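RNA from mouse quadriceps was hybridised to Affymetrix exon arrays, 18 arrays in 6 groups of 3 biological replicates, and groups were taken from the labels. Per the labels and the study's methods, the authors processed the arrays with RMA in Partek on mm9, with versions not given in the sources used here, and deposited 1 log2 value per row and array. RMA subtracts background, equalises the distributions between arrays and summarises probes, which compresses low signals and makes every difference relative to the bulk of rows. Rows were named from the platform annotation, rows with several symbols were left out, and the row of highest average signal was kept for each gene. The 77 members had 85 rows, and 5 members had several.

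All comparisons were contrasts of the 6 group means over the 18 arrays, fitted in limma 3.58.1 (R 4.3.3) with eBayes moderation, 12 residual and 3.20 prior degrees of freedom. Benjamini-Hochberg adjustment covered the 20259 genes, the threshold was 0.05, and intervals are 95% intervals of the same fit. The scripts were tested on simulated data with known changes. Student's t-test with one-way ANOVA, a threshold of more than 2-fold at p under 0.01 as in the methods, a replicate block, all rows, the mean of a gene's rows, a filter on dim genes, 2 scalings, a trended robust eBayes, fits of the compared groups only and leaving out each array were alternatives. A change of the Adam12 row was added after the data were seen. No hybridisation batch was given in the sources used here, and the number of arrays limits the precision.

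Members, roles and lists were chosen with earlier results of these data known. Named with values were the Mmp and Timp members called in any single comparison, the 6 largest increases and decreases among the called Adamts, Adamtsl and Adam members of each comparison, members called in Dysf-/- against wt, and up to 6 genes a list outside the families by p; genes named without values complete a count. Values on every array were given for the 12 members with the smallest p in the 6-group test. Marker sums are sums of unlogged values. Promoter sequences were those of RefSeq on GRCm38.p6, searched with Python 3.11.15 (pandas 2.3.3), and figures were drawn with matplotlib 3.10.9.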

Additional observations from a re-analysis of the deposited data

Results flagged for a closer look

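For 20 members the effect of the F66 transgene differed between the Dysf-/- and the wt background in the test of the difference itself (limma, adjusted over all genes). The values are the log2 effect in Dysf-/- muscle minus that in wt muscle. Among the MMPs the difference was 3.17 for Mmp12, 2.16 for Mmp13, 0.97 for Mmp14, 0.93 for Mmp3, 0.72 for Mmp19, 0.55 for Mmp23, 0.55 for Mmp8 and 0.48 for Mmp11. For Mmp7 it was -0.39, the 1 negative value. Timp1 was the 1 TIMP, at 1.04. Among the ADAMs it was 2.19 for Adam8, 1.48 for Adam12, 0.83 for Adam19 and 0.40 for Adam15. The value for Adam12 is that of the row with the uncertain position. The other row, put in its place, gave 0.26 and was also called. With p adjusted over all rows in place of genes, neither row was called (adjusted p = 0.11 and 0.301). Among the ADAMTS genes it was 0.81 for Adamts15, 0.73 for Adamts14, 0.65 for Adamts4, 0.55 for Adamts17, 0.43 for Adamts10 and 0.30 for Adamts7, and the mean of both Adamts14 rows gave 1.29. Adam15, Adamts7, Adamts10 and Adamts17 lie outside the rule for naming genes and are given so that the list is complete. In each case but Mmp7 the larger effect was in the background where the summed macrophage markers were also highest with the transgene, and the part of these markers was not tested.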

How the results depend on the processing

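Counts of called members kept within 1.5 times of the reported ones under most alternatives. Apart from the threshold of the methods, the counts below are of members alone. The share of all genes called is not given beside them, so whether members changed more or less than genes in general cannot be read. With all rows tested, in place of 1 row a gene, 32 members were called in the 6-group test, 27 in F66;Dysf-/- against Dysf-/-, 9 in F66 against wt, 23 in F66;Dysf-/- against F66 and 13 in the difference of the transgene effects. The threshold of the methods, which adds a fold minimum, gave 10, 2 and 7 members in F66;Dysf-/- against Dysf-/-, F66 against wt and F66;Dysf-/- against F66. Over all 20259 genes it gave 478, 133 and 422 in these comparisons. In Dysf-/- against wt it gave 1 member, beside 19 of all genes. For F66 against wt, a fit of the compared groups only called 11 members and Student's t-test 8. For Dysf-/- against wt, Student's t-test at an adjusted p under 0.05 called 0. The filter on dim genes called 3 (Timp1, Mmp12 and Adamtsl4) and a further quantile normalization 2 (Timp1 and Mmp12). That filter kept Mmp12 on a mean that includes the F66;Dysf-/- arrays. The causes were not tested. Leaving out each array in turn gave 40 to 51 members in the 6-group test, 33 to 45 in F66;Dysf-/- against Dysf-/-, 12 to 18 in F66 against wt, 1 to 2 in Dysf-/- against wt, 32 to 42 in F66;Dysf-/- against F66, 17 to 22 in the difference of the transgene effects, 0 to 0 for ACVR2B/Fc in wt, 0 to 3 for ACVR2B/Fc in Dysf-/- and 0 to 0 for the difference of its effects. The main fit did not pair arrays by replicate number. Deviations of same-numbered arrays correlated at -0.075 to 0.29 and 7 of 45 pairs exceeded 0.1. Differently numbered arrays were not compared, so these values cannot show whether the arrays were paired. With the replicate number as a block the counts were 52, 44, 18, 2 (Timp1 and Adamtsl4), 40 and 20 for the 6-group test, F66;Dysf-/- against Dysf-/-, F66 against wt, Dysf-/- against wt, F66;Dysf-/- against F66 and the difference of effects. Over 92 called results of named members, 2322 of 2537 alternative values kept the call, 215 lost it and 0 changed sign. The calls lost most often were Adam1a in F66 against wt, Mmp7 in the difference of effects, Adam6b in F66;Dysf-/- against F66, and Mmp20 and Adam7 in F66;Dysf-/- against Dysf-/-. Centring each array moved the median of all genes by at most 0.089. Members below the median of all rows are limited by background.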
